A study of Homo sapiens with 4 samples.

Results

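Open chromatin was described around 5 genes whose products restrain signalling by the TGF-beta family, SMAD7, BAMBI, PMEPA1, SKIL and TGIF1. A peak was included when it overlapped the hg19 interval of 1 of these genes or the 50 kb on either side of it. That rule took 115 of the 181268 peaks in 4 lists, namely 48 of 75585 after Activin A, 14 of 21078 after Wnt3a, 36 of 58382 after both ligands and 17 of 26223 in control. Peaks that overlapped or touched were merged across lists, which gave 55 of the 87966 merged regions of the series. The lists came from ATAC-seq, in which a transposase cuts accessible DNA, of H1, a long-established line of human embryonic stem cells. Activin A was given at 25 ng/ml, Wnt3a at 25 ng/ml, or the pair at 25 ng/ml each, and these cells were harvested after 6 h. The medium of treated cells is listed with B27 alone, whereas control cells stayed in growth medium that also holds N2 and basic fibroblast growth factor, with no harvest time given. Ligand and medium therefore cannot be told apart in any comparison with control, while the treated groups share 1 medium. Each group had 1 library, so no test was made between groups, no p-value is given, and the intervals cover counting error only. Marker genes of stem cells and of mesendoderm were not analysed here, since no hg19 positions other than those of the 5 genes were used.

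Activin A, which belongs to the TGF-beta family of ligands, binds paired serine/threonine kinase receptors at the cell surface. The activated receptors phosphorylate SMAD2 and SMAD3, which join SMAD4, enter the nucleus and switch target genes on or off. Among those targets are inhibitors of the pathway itself, so that the signal limits its own strength. BAMBI is a membrane protein that resembles a receptor but lacks the kinase domain, SMAD7 is an inhibitory SMAD that blocks the receptors and recruits ubiquitin ligases to them, and PMEPA1 is a membrane protein that binds SMAD2 and SMAD3. SKIL (SnoN) and TGIF1 act in the nucleus, where each binds SMAD proteins and brings in co-repressors. Wnt3a acts through a separate receptor and stabilises beta-catenin, a partner of the TCF/LEF factors. In human embryonic stem cells Activin signalling sustains pluripotency, and together with Wnt it starts mesendoderm formation.

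DNA at the start sites is shown here because the strongest regions at SKIL, BAMBI and PMEPA1 lay at or just inside the 5′ end of the gene and that of TGIF1 lay far inside it. RefSeq on GRCh38.p14 holds 16 start windows for the 5 genes, each running from 250 bases before a start to 50 after it. The window shown is the one with the most copies of the SMAD box, CAGAC or its complement GTCTG, in capitals. For TGIF1, where 3 windows held 2 copies, the first start was passed over because no list had a peak near the 5′ end of the gene, and the next is shown. Windows are on GRCh38.p14 and peaks on hg19, and positions were not carried from one build to the other.
SMAD7, start 1 of 3, chr18:48950916-48951215, minus strand, 5′ to 3′: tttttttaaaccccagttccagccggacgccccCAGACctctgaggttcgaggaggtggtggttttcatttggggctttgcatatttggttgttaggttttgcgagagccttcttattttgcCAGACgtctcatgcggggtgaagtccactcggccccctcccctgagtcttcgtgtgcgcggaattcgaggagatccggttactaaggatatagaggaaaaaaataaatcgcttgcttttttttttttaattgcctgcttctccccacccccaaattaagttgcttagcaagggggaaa
BAMBI, only start, chr10:28677271-28677570, plus strand, 5′ to 3′: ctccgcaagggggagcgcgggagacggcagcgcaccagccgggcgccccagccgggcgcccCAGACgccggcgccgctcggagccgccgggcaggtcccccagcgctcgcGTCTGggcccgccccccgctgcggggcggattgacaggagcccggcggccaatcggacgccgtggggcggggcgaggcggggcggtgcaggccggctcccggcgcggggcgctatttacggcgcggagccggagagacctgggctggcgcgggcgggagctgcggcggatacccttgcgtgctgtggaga
PMEPA1, start 3 of 4, chr20:57709966-57710265, minus strand, 5′ to 3′: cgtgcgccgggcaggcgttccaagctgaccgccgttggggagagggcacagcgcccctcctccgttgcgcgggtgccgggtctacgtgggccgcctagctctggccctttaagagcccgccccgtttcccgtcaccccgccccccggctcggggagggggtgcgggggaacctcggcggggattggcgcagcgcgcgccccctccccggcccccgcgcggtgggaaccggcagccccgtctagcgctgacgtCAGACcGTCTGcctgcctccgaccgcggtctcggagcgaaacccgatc
SKIL, only start, chr3:170357465-170357764, plus strand, 5′ to 3′: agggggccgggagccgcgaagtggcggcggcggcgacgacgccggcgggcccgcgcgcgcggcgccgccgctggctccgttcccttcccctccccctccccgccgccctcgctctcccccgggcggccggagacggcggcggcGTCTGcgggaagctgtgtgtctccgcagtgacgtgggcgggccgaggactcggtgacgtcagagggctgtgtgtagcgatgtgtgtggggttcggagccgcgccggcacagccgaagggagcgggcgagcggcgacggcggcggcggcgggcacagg
TGIF1, start 3 of 7, chr18:3448181-3448480, plus strand, 5′ to 3′: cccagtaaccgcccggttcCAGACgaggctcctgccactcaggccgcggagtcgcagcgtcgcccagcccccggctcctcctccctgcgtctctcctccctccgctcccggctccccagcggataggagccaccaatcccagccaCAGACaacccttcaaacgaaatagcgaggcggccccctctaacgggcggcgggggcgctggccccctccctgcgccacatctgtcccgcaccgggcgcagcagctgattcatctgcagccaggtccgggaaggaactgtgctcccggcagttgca

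The SMAD box was found on either strand in 12 of these 16 windows (75%), against 45.3% of all 35116 start windows of the same length. The counts include overlapping TGIF1 windows. In PMEPA1 a CAGAC and a GTCTG stood 1 base apart, just after the start. The palindrome GTCTAGAC was in none of the 16 windows and in 0.202% of all windows. AATNCACA, a FOXH1-type site, was in 1 window, the second PMEPA1 start, and in 3.31% of all. CTTTGAT, the TCF/LEF core, was in none of the 16 and in 2.62% of all. No motif searched contains another, and the matches describe letters only.

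On hg19 the gene intervals were chr18:46446223-46477081 for SMAD7 (minus strand), chr10:28966424-28971868 for BAMBI (plus), chr20:56223448-56286592 for PMEPA1 (minus), chr3:170075466-170114623 for SKIL (plus) and chr18:3411925-3458406 for TGIF1 (plus), with strands taken from RefSeq. The number of peaks at the 5 loci followed the length of the lists. Peaks at the loci made up 0.0635% of the Activin A list (exact Clopper-Pearson 95% interval 0.0468 to 0.0842), 0.0664% of the Wnt3a list (0.0363 to 0.111), 0.0617% of the list after both ligands (0.0432 to 0.0854) and 0.0648% of the control list (0.0378 to 0.104). The 4 intervals overlapped, each share lay inside the intervals of the other lists, and differences between the shares were not tested. When each list was reduced to its 21078 best-scoring peaks, the length of the shortest, 13 peaks lay at the loci after Activin A, 14 after Wnt3a, 13 after both ligands and 13 in control. The peaks covered 41.0 kb of the 685.1 kb of windows after Activin A, 10.2 kb after Wnt3a, 34.3 kb after both ligands and 11.7 kb in control. SMAD7 and PMEPA1 had the most regions, 20 and 16, TGIF1 and BAMBI had 7 each, and SKIL had 5. At SMAD7 there were 17 peaks after Activin A, 4 after Wnt3a, 15 after both ligands and 9 in control. At PMEPA1 there were 14 peaks after Activin A, 3 after Wnt3a, 6 after both ligands and 2 in control. At SKIL, where the counts were closest, there were 4 peaks after Activin A, 3 after Wnt3a, 5 after both ligands and 3 in control. Just inside the limit of 50 kb the farthest regions lay 40.5 to 49.0 kb from their gene, with best percentiles of 30.4 to 81.6, and the nearest outside it lay at 50.4 to 70.2 kb, with best percentiles of 10.5 to 63.9.

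**Figure D1:**
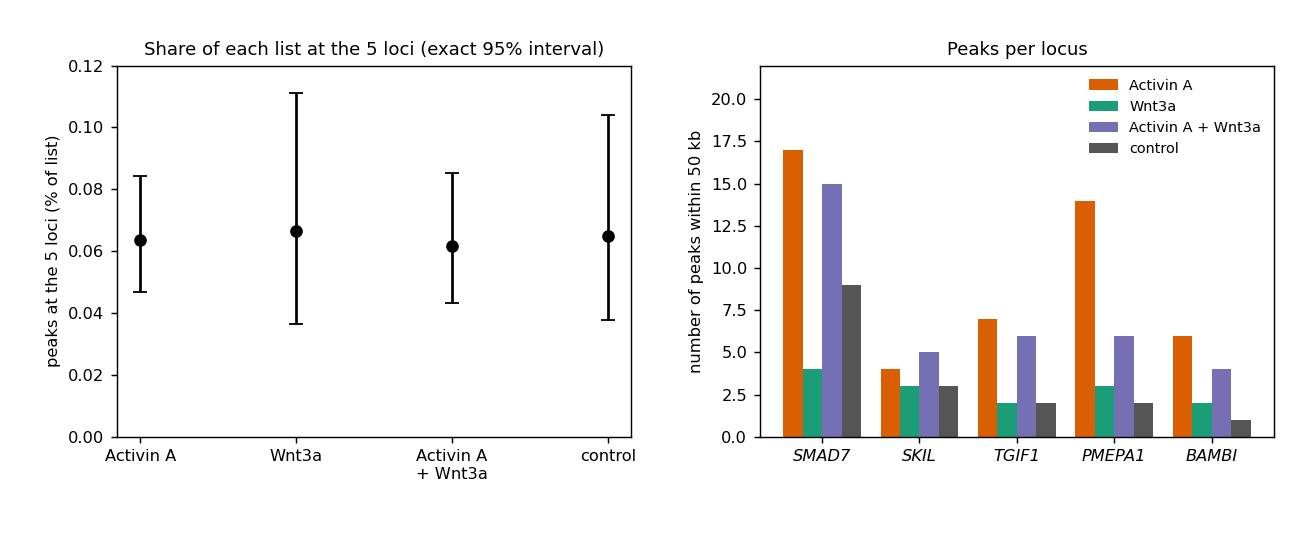
Left, peaks at the 5 loci as a percentage of all peaks in each list, with exact 95% intervals (counting error only, 1 library per group). Right, the number of peaks within 50 kb of each gene in each list. The 4 shares lie between 0.0617% and 0.0664% although the counts run from 14 to 48.

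**Figure D2:**
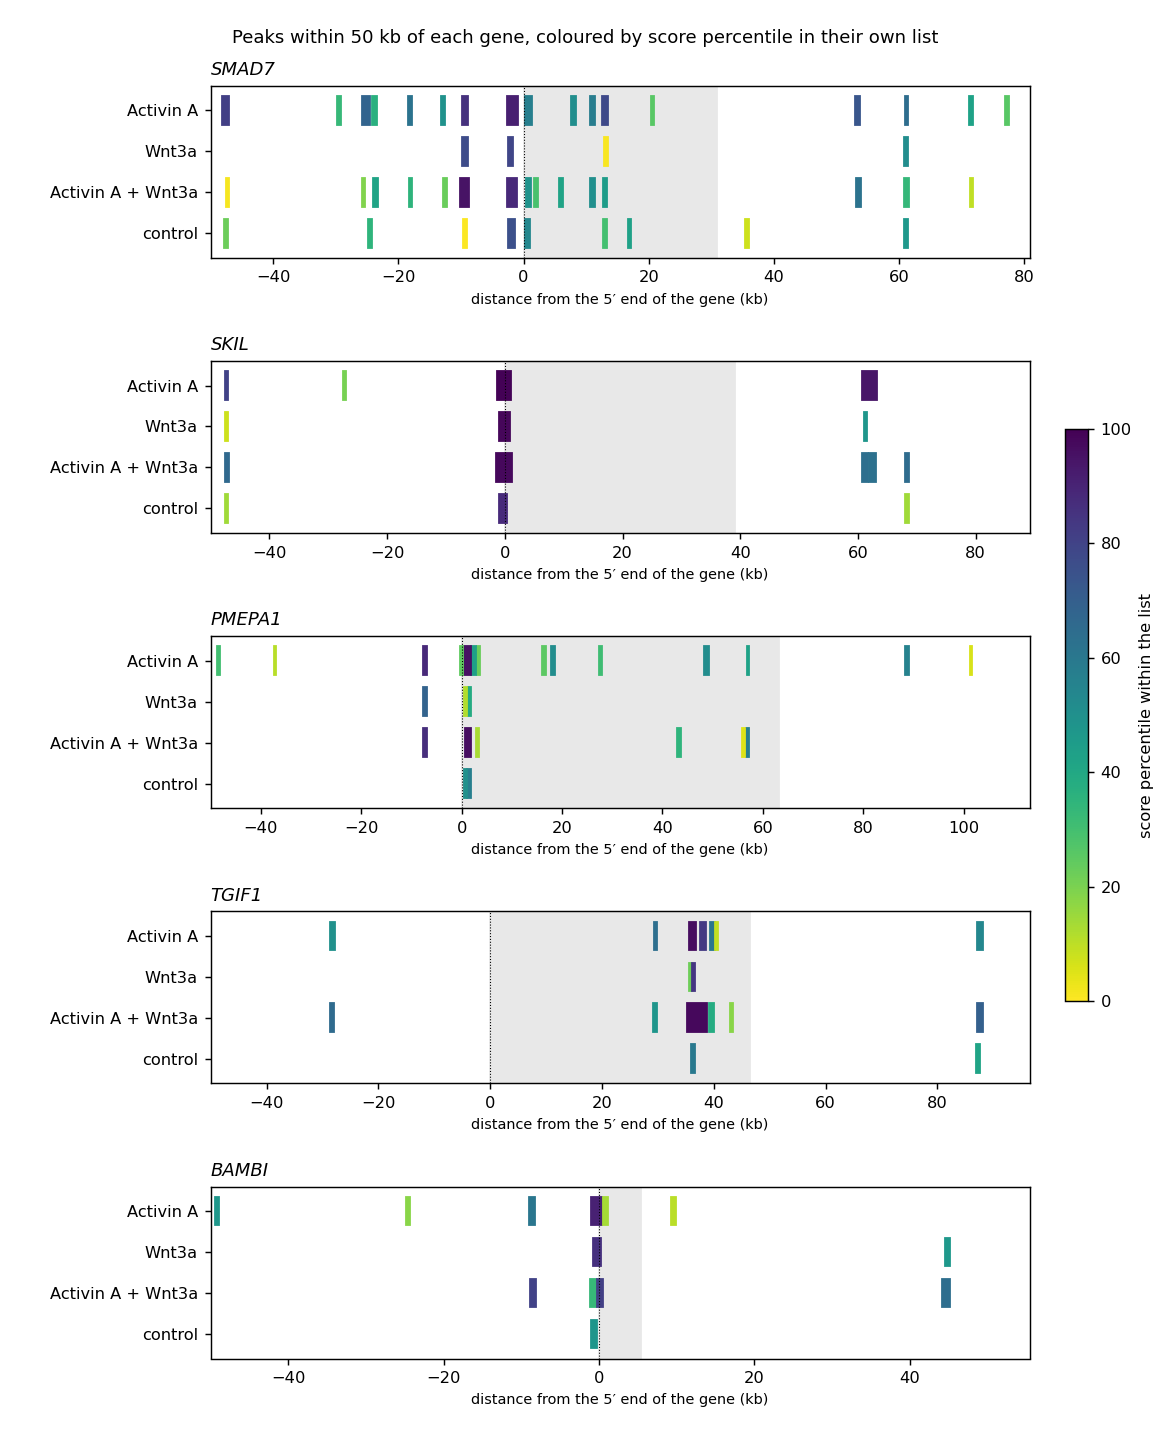
Peaks of the 4 lists by distance of their centre from the 5′ end of each gene in kb, negative upstream. The gene is shaded grey, colour gives the percentile of the peak's score within its own list, and peaks narrower than 0.5 kb are drawn 0.5 kb wide. Dark peaks stand at or near the 5′ ends of SKIL, PMEPA1, BAMBI and SMAD7, and 36.99 kb inside TGIF1.

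Scores are the authors' own values for each peak. A percentile here is the share of peaks in the same list with a lower score, and since the lists differ in length such percentiles describe each list and show no change by themselves. For comparisons between lists, percentiles were therefore also taken over the 13016 regions that have a peak in all 4 lists, so that the same regions are ranked in each. Of the 55 regions at the loci, 9 (16.4%) were among them, against 14.8% of all 87966 regions.

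BAMBI, the receptor-like inhibitor, had 7 regions, and the strongest spanned its 5′ end at 28965336 to 28966923 on chromosome 10. The scores there were 463 after Activin A, 160 after Wnt3a, 226 after both ligands and 72.9 in control, at percentiles 91.0, 86.1, 81.6 and 47.7 of those lists in the same order. Ranked among regions common to all lists, the region stood at 52.8 after Activin A, 78.4 after Wnt3a, 34.6 after both ligands and 25.1 in control. All 3 treated libraries were thus above control, by 27.7, 53.2 and 9.50 percentile points, with Wnt3a alone the highest and both ligands 43.8 points below Wnt3a alone. After both ligands the caller had split this region into 2 peaks of 682 and 760 bp, whereas 1 peak stood there in each of the others, 1382 bp wide after Activin A, 970 bp wide after Wnt3a and 820 bp wide in control. The lower rank after both ligands is that of the better of the 2 peaks, and the part of the split in it was not tested.

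Farther from BAMBI, the lists differed in which regions they held. A region centred 8.58 kb upstream was present after Activin A (score 140, percentile 60.8) and after both ligands (score 214, percentile 80.2), and absent after Wnt3a and in control. A region 44.7 kb downstream of the 5′ end showed another pattern, with a peak after Wnt3a (score 82.3, percentile 46.5) and after both ligands (score 129, percentile 64.2) and none after Activin A or in control. It was the only region of the 55 with that pattern, which 281 of all 87966 regions (0.319%) had. The 4 others at BAMBI, at 49.1 and 24.6 kb upstream and 0.86 and 9.6 kb downstream of the 5′ end, were in the Activin A list alone, at percentiles of 10.2 to 46.9.

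SMAD7, the inhibitory SMAD, had the strongest contrast between lists in a region 9.44 kb upstream of its 5′ end, at 46485736 to 46487309 on chromosome 18. The score there was 346 after Activin A, 129 after Wnt3a, 472 after both ligands and 50.7 in control, where the lowest score of the whole list is 50.0. Both ligands together gave the highest rank among common regions, 77.9, against 65.4 after Wnt3a, 34.3 after Activin A and 0.254 in control. The combined library was thus 43.6 points above Activin A alone, 12.6 above Wnt3a alone and 77.7 above control. The peak was 1574 bp wide after both ligands, 899 bp with Activin A, 868 bp with Wnt3a and 598 bp in control. The control peak barely passed the lowest score of its list, and this region was absent from control in the lists of equal length.

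The region 1.8 kb upstream of the SMAD7 5′ end, at 46477966 to 46479799, ranked alike in most lists. Its score was 470 after Activin A, 134 after Wnt3a, 307 after both ligands and 117 in control. Among common regions it stood at 53.8 after Activin A, 68.1 after Wnt3a, 52.7 after both ligands and 55.9 in control, so that only Wnt3a differed from control by over 10 points. The region nearest to the 5′ end, 0.78 kb inside the gene at 46475765 to 46476839, was weaker and had no Wnt3a peak. Its scores were 128 after Activin A, 91.4 after both ligands and 78.6 in control, at percentiles 57.2, 48.5 and 53.6 of those lists.

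Other SMAD7 regions were ordered differently. One 13.1 kb inside the gene, at 46463516 to 46464548, had scores of 239 after Activin A, 58.5 after Wnt3a, 85.6 after both ligands and 60.8 in control. Among common regions it ranked low in every list, at 17.3 after Activin A, 0.688 after Wnt3a, 4.01 after both ligands and 13.3 in control. A region 47.6 kb upstream was strong after Activin A (score 282, percentile 81.6) and weak after both ligands (score 50.5, percentile 1.51) and in control (score 57.7, percentile 22.3), and was absent after Wnt3a. Downstream of the gene, 53.5 kb from its 5′ end, a region was present after Activin A (score 204, percentile 73.4) and after both ligands (score 122, percentile 61.8) and in no other list. The remaining 14 regions had best percentiles of at most 68.1, and 2 of them, 16.9 and 35.7 kb from the 5′ end, were in the control list alone with scores of 69.2 and 52.0. Only 1 of the 14 was in every list, 61.2 kb downstream of the 5′ end at 46415464 to 46416283, and it is described because its rank among common regions differed from control by at least 10 points in opposite directions between ligands, a choice made after its values were seen. Its scores were 155 after Activin A, 86.6 after Wnt3a, 71.5 after both ligands and 71.9 in control, and its ranks among common regions were 5.95, 35.1, 2.05 and 24.2 in the same order.

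PMEPA1, which binds SMAD2 and SMAD3 at membranes, was the locus where Activin A and Wnt3a differed most in rank among the 9 regions common to all lists. Its strongest region lay 1.15 kb inside the gene at 56284683 to 56286208 on chromosome 20, with scores of 695 after Activin A, 75.9 after Wnt3a, 526 after both ligands and 83.0 in control. Among common regions it stood at 76.8 after Activin A, 24.4 after Wnt3a, 82.7 after both ligands and 33.5 in control. Both lists made with Activin A were thus above control, by 43.3 points for Activin A alone and 49.1 for both ligands, while the Wnt3a list was below it, by a difference of -9.07 points. With both ligands the rank was 58.2 points above that of Wnt3a alone and 5.89 above that of Activin A alone. The region was 1 peak of 1434 bp after Activin A and 1 of 1322 bp after both ligands, but was split in 2 after Wnt3a, where the better peak was 503 bp, and in control, where it was 671 bp, and the part of the split in these ranks was not tested.

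Upstream of PMEPA1, 7.29 kb from its 5′ end at 56293413 to 56294358, a region was found after every treatment and not in control. Its score was 395 with Activin A, 110 with Wnt3a and 286 with both ligands, at percentiles 88.3, 68.5 and 86.8 of those lists. The interval's 5′ end itself was covered only by a weak Activin A peak (score 71.2, percentile 24.6). That end is not the only start, since PMEPA1 has 4 starts in RefSeq. On GRCh38.p14, starts 2 and 3 lie 0.895 and 1.46 kb downstream of start 1. The strongest PMEPA1 region was centred 1.15 kb inside the hg19 interval. Whether that region covers start 2 or 3 was not determined, since positions were not carried between builds. Of the other 13 PMEPA1 regions, 9 had a peak after Activin A only, 2 after both ligands only and 2 in each of these lists, and none had a Wnt3a or control peak. The named ones among them were 56.9 kb inside the gene (percentile 42.3 with Activin A and 57.6 with both ligands), and 88.7 and 48.7 kb from the 5′ end in the Activin A list alone (percentiles 56.1 and 51.3).

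SKIL, the SnoN co-repressor, had the highest-ranking region of the 5 loci, which spanned its 5′ end at 170073900 to 170076645 on chromosome 3. The score was 1334 after Activin A, 344 after Wnt3a, 667 after both ligands and 166 in control, at percentiles 99.4, 98.4, 98.0 and 87.9 of their own lists. Among common regions the ranks were 96.6 after Activin A, 97.6 after Wnt3a, 91.0 after both ligands and 76.6 in control. All treated libraries stood above control, by 20.0, 21.0 and 14.4 points, and they lay close to each other, the widest difference being -6.58 points for both ligands minus Wnt3a. Peak width was 2412 bp with Activin A, 1874 bp with Wnt3a, 2746 bp after both ligands and 1249 bp in control. These widths exceeded those of 99.2% of the peaks in the Activin A list, 99.6% in the Wnt3a list, 99.6% in the combined list and 94.1% in the control list.

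Downstream of SKIL, 61.9 kb from its 5′ end at 170136119 to 170138630, a region was strong after Activin A (score 604, percentile 94.5, 2512 bp wide). It was weaker after Wnt3a (score 83.0, percentile 47.3, 591 bp wide) and absent in control. After both ligands the region was split into 2 peaks, of 1073 bp (score 128, percentile 63.7) and 1239 bp (score 125, percentile 62.9), which together covered 2312 bp. The covered length was thus close to that after Activin A while each peak scored lower, and the part of the split in those scores was not tested. RefSeq lists the claudin gene CLDN11 within 50 kb of SKIL. Whether the region overlaps CLDN11 or its start was not determined, and distance alone does not tie the region to either gene. The region 47.2 kb upstream, in all 4 lists, had scores of 266 after Activin A, 60.0 after Wnt3a, 136 after both ligands and 53.8 in control, and stood at 21.6, 4.36, 12.9 and 5.87 among common regions. A region 68.3 kb from the 5′ end was in the list after both ligands (score 132) and in control (53.8) but in neither single-ligand list, a pattern of 0.598% of all regions. The last, 27.3 kb upstream, was in the Activin A list alone (percentile 20.6).

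TGIF1, the homeodomain co-repressor, had no peak in any list within 27836 bp of the 5′ end of its interval. Its strongest region was centred 36.99 kb inside the gene, at 3447045 to 3450783 on chromosome 18. RefSeq lists 7 starts for TGIF1, and on GRCh38.p14 all but the first lie 35.5 to 39.6 kb downstream of the first. The score was 751 after Activin A, 152 after Wnt3a, 665 after both ligands and 86.1 in control. Among common regions the ranks were 80.8 after Activin A, 75.7 after Wnt3a, 90.9 after both ligands and 36.2 in control. Each treated library stood above control, by 44.6, 39.5 and 54.7 points, and both ligands were 10.1 points above Activin A and 15.2 above Wnt3a.

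The lists differed at TGIF1 in peak width and in whether the region was split. After both ligands a single peak of 3739 bp covered the region, wider than 99.9% of the peaks in that list. Activin A alone gave 2 peaks, at 3447410 to 3448655 and 3449533 to 3450618, that together covered 2332 bp. Wnt3a gave 2 that covered 1033 bp, and control 1 of 759 bp. The part of the split in the ranks and in the widths was not tested. Nearby regions 39.7 kb and 29.4 kb inside the gene were present after Activin A (percentiles 60.7 and 64.0) and after both ligands (38.3 and 47.7) only. The same presence was seen 28.2 kb upstream, with percentiles of 49.8 after Activin A and 65.6 after both ligands. A region 87.6 kb from the 5′ end, beyond the gene's far end, was in the Activin A, combined and control lists at percentiles 53.7, 69.8 and 41.7. RefSeq lists DLGAP1 within 50 kb of TGIF1, and whether the region lies inside DLGAP1 was not determined.

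**Figure D3:**
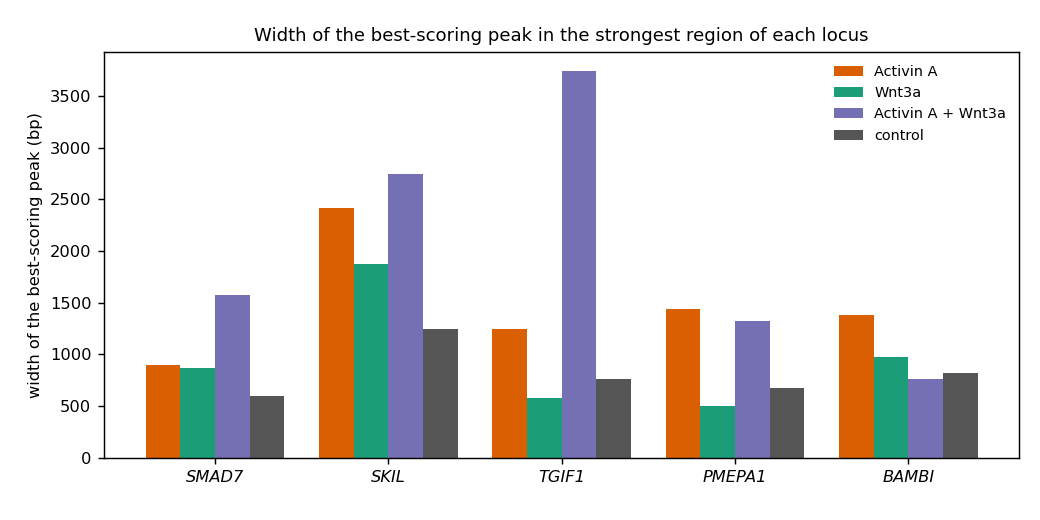
Width in bp of the best-scoring peak in the strongest region of each locus, by list (1 library per group, no error). The widest is the TGIF1 peak after both ligands, 3739 bp, and control had the narrowest best-scoring peak at SMAD7 and SKIL only. Where the caller had split a region, only the better peak is drawn. By bases covered, control was also lowest at TGIF1 (759 bp, next Wnt3a at 1033 bp) and BAMBI (820 bp, next Wnt3a at 970 bp).

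The 9 regions common to all lists were then set side by side, and a rank difference of at least 10 percentile points was counted. The 9 are 4 at SMAD7, 2 at SKIL and 1 at each other gene. Activin A was higher than control at 6 of the 9 and lower at 1, against 29.8% and 31.4% of the 13016 common regions. Wnt3a was also higher than control at 6 and lower at 1, against 33.7% and 33.0%. Both ligands were higher than control at 4 and lower at 1, against 29.3% and 30.9%. The strongest regions of SKIL and TGIF1 and the upstream region of SMAD7 were higher by that measure after all 3 treatments. PMEPA1 was higher after Activin A and both ligands, and BAMBI after Activin A and Wnt3a. The comparisons share 1 control library, and the median difference from control over the 9 regions was 20.0 points for Activin A, 12.1 for Wnt3a and 9.50 for both ligands, against -0.184, 0.102 and -0.273 over all common regions. The middle 90% of common regions spread from -39.1 to 41.4 points for Activin A, -47.8 to 47.0 for Wnt3a and -38.7 to 42.1 for both ligands. Differences above those ranges were seen for Activin A at PMEPA1 and TGIF1, for Wnt3a at BAMBI and the upstream SMAD7 region, and for both ligands at PMEPA1, TGIF1 and the upstream SMAD7 region.

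**Figure D4:**
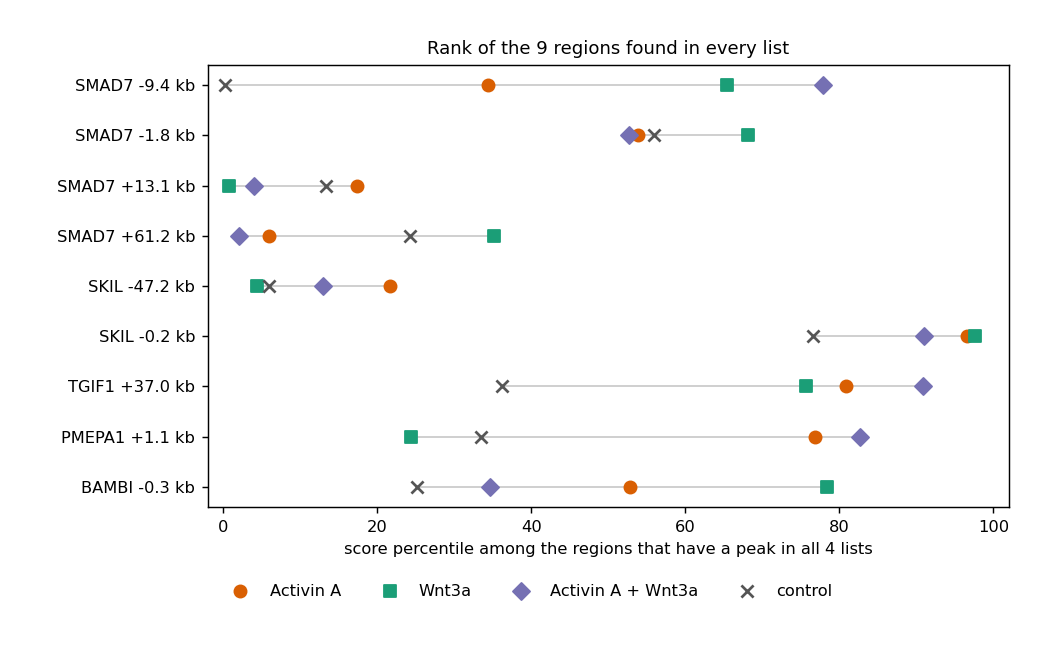
Percentile of each of the 9 regions found in every list, ranked by score among the 13016 regions with a peak in all 4 lists. Labels give the gene and the distance of the region's centre from its 5′ end, and a grey line joins the lowest and highest list. Control is lowest at 4 regions, SMAD7 upstream, SKIL and BAMBI at the 5′ end, and TGIF1, while at PMEPA1 the Wnt3a list is lowest, at 24.4.

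Rank differences between treated groups, which share a medium, went in both directions. Both ligands were higher than Activin A alone at 2 of the 9 regions, SMAD7 upstream and TGIF1, and lower at 2, BAMBI and the intragenic SMAD7 region, against 24.9% and 25.5% of common regions. Relative to Wnt3a alone, both ligands were higher at 3 and lower at 3, against 30.7% and 32.8%. Activin A was higher than Wnt3a at 3, PMEPA1 (by 52.3 points), the intragenic SMAD7 region (16.6) and the upstream SKIL region (17.2), and lower at 4, BAMBI and 3 of the SMAD7 regions, against 30.9% and 32.2%. For Activin A minus Wnt3a the middle 90% of common regions ran from -41.4 to 43.6 points, and PMEPA1 lay above it. For both ligands minus Activin A it ran from -30.1 to 30.4, and the upstream SMAD7 region, at 43.6, lay above it. For both ligands minus Wnt3a it ran from -41.1 to 44.7, with PMEPA1 above it at 58.2 and BAMBI below it at -43.8.

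At full list length, presence and absence of peaks at the loci ran close to the shares over all regions. After Activin A, 33 of 46 regions (71.7%) were absent from control and 3 of the 16 in control (18.8%) were lost, against 70.0% and 11.5% of all regions. After Wnt3a, 3 of 12 (25.0%) were absent from control and 7 of 16 (43.8%) were lost, against 33.1% and 46.5%. The 3 Wnt3a gains were those 61.9 kb downstream of the SKIL 5′ end, 7.29 kb upstream of PMEPA1 and 44.7 kb downstream of the BAMBI 5′ end. After both ligands, 19 of 33 (57.6%) were absent from control and 2 of 16 (12.5%) were lost, against 62.5% and 15.2%. At equal list length, where similar numbers of gains and losses follow from the lengths, Activin A gained 5 of 12 regions and lost 5 of 12, against 32.2% and 30.2% of all regions. Wnt3a gained 5 of 12 and lost 5 of 12, against 39.0% and 39.9%, and both ligands gained 7 of 13 and lost 6 of 12, against 32.9% and 30.9%. Each of these equal-length shares against control was above that over all regions, but each rests on 12 or 13 regions. Against Wnt3a, the equal-length shares for Activin A and for both ligands were below those over all regions. For both ligands against Activin A they were above.

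Among strong regions, those whose best peak was in the highest 25% of scores of its own list, few were absent from control. They numbered 2 of 11 after Activin A, at PMEPA1 upstream and SKIL downstream, 0 of 5 after Wnt3a, and 2 of 8 after both ligands, at PMEPA1 upstream and BAMBI upstream. Over all strong regions the shares were 22.1%, 5.12% and 15.2%. Between treated lists, both ligands gained 7 of 33 regions and lost 20 of 46 against Activin A alone (43.5%), where all regions gave 21.0% and 39.4%. Of the 20 lost, 10 were at PMEPA1, out of 14 with an Activin A peak there. The others were 4 of 6 at BAMBI, 4 of 16 at SMAD7, 1 of 4 at SKIL and 1 of 6 at TGIF1. Against Wnt3a alone, both ligands gained 21 of 33 regions and lost 0 of 12, where all regions gave 67.9% and 9.27%. Activin A gained 35 of 46 and lost 1 of 12 against Wnt3a, the 1 being the region downstream of BAMBI, where all regions gave 74.6% and 6.02%.

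By list membership, the 20 regions in the Activin A list alone were weak, with percentiles of 6.21 to 56.1 (median 25.9), and made up 36.4% of the 55, against 30.1% of all regions. The 11 regions shared by Activin A and both ligands and no other list (20.0%, against 21.9% of all) had a median best percentile of 60.7. The 9 in every list had a median best percentile of 91.2. A best percentile is the highest over the lists that hold the region, so regions in more lists have more values to take it from. These medians are therefore not alike in kind. By position, 16 regions lay upstream, 27 overlapped the genes and 12 lay downstream, and all 16 upstream regions had an Activin A peak, while 4 had a Wnt3a peak, 10 a peak after both ligands and 5 a control peak. Over all 87966 regions, 83.1% had an Activin A peak, 22.5% a Wnt3a peak, 63.7% a peak after both ligands and 28.2% a control peak. The windows also held neighbours in RefSeq, CLDN11 at SKIL, ZBP1 and the noncoding RNA gene NKILA at PMEPA1, and DLGAP1 and GAPLINC at TGIF1, and no region was assigned to a gene by more than distance.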

How the data were processed

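ATAC-seq of H1 cells was measured in 1 library per group. The deposited files are the authors' peak lists on hg19, with coordinates and a score per peak, and the score's scale is not given in the sources used here. Bowtie2 2.2.2 and CASAVA 1.8 are the tools named per the submitters' processing notes. The caller's version, settings, background and filters are not given in the sources used here. Lowest scores per list were 50.0 to 51.1, so weaker sites appear as absent, and a longer list shows more sites. Sequencing depth is unknown.

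Peaks within 50 kb of the gene intervals were taken, peaks of the 4 lists were merged when they overlapped or touched, and the best-scoring peak stood for a region in each list. Gained means a peak in the first list and none in the second, and lost the opposite. Tied peaks were given the midpoint of their percentiles. Regions named are the one nearest the 5′ end and the 5 of highest percentile at each locus. The members and lists were chosen with earlier results of these data known. Other pathway genes were not analysed here. Python 3.11.15, pandas 2.3.3 and scipy 1.17.1 were used, and the steps were tested on simulated data. Alternatives were windows of 10 and 100 kb, lists of equal length, the best 50% of each list, fixed widths, other merging and ranking, and leaving out each gene.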

Additional observations from a re-analysis of the deposited data

Results flagged for a closer look

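At 1 SMAD7 region, 61.2 kb downstream of the gene's 5′ end at 46415464 to 46416283 on chromosome 18 (hg19), the ligands differed from control by at least 10 percentile points in opposite directions, by rank among the 13016 regions common to all lists. Such opposite differences were found at 1 of the 9 common regions of the loci for Activin A against Wnt3a, and over all common regions at 8.16%, and at 1 of 9 for both ligands against Wnt3a, where all common regions gave 8.47%. Differences of opposite sign, with 1 of the pair under 10 points, also occurred at PMEPA1, 43.3 for Activin A and -9.07 for Wnt3a, at SMAD7 1.8 kb upstream, -2.12 for Activin A and 12.1 for Wnt3a, at SMAD7 13.1 kb inside the gene, 4.03 for Activin A and -12.6 for Wnt3a, and at SKIL 47.2 kb upstream, 15.7 for Activin A and -1.51 for Wnt3a. The share of all common regions with such pairs was not computed. Of these differences, only the 43.3 at PMEPA1 lay outside the middle 90% of common regions. At the region named first, Activin A was lower than control (a difference of -18.2), Wnt3a was 10.9 points higher, and both ligands together were lower, at -22.1. The difference from control under Activin A minus that under Wnt3a was thus -29.1 points, and that under both ligands minus that under Wnt3a was -33.0 points. These differences were not tested, since each group had 1 library, and all of them share the control library.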

How the results depend on the processing

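Of the values recomputed under other choices, 93 moved. The other 191 were counts within 1.5 times the reported one, or shares and percentiles inside its exact 95% interval. Some of these shares still moved by over 1.5 times, since their intervals are wide. For the median percentiles the interval treated the median as a share of the whole list. It does not measure the error of a median over a few genes. Except at equal list length, gained and lost regions under other choices were counted without the share over all regions. Those counts by themselves cannot show whether the loci departed from that share. No paired analysis was possible because there was a single library in every group.

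With windows of 10 kb, peaks at the loci numbered 27 after Activin A (0.0357% of the list), 21 after both ligands (0.0360%) and 11 in control (0.0419%), and against control 18 regions were gained after Activin A, 1 after Wnt3a, where 3 were lost, and 12 after both ligands. Both ligands lost 11 against Activin A and gained 12 against Wnt3a, and Activin A gained 18 and lost 0 against Wnt3a. With 100 kb, peaks numbered 78 after Activin A (0.103%) and 58 after both ligands (0.0993%). Gained and lost against control were then 57 and 5 for Activin A, 7 and 13 for Wnt3a and 36 and 5 for both ligands, against Activin A 15 and 36 for both ligands, against Wnt3a 38 and 1 for both ligands, and 59 regions were gained by Activin A against Wnt3a. Fewer or more peaks follow from the window itself.

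At equal list length, with 13 peaks at the loci after Activin A and 13 after both ligands, gained and lost against control were 5 and 5 for Activin A, 7 and 6 for both ligands, and 5 gained for Wnt3a. Against Activin A, both ligands gained 5 of 13 and lost 4 of 12, where all regions gave 21.5% for each. Against Wnt3a, both ligands gained 4 of 13 and lost 3 of 12, where all regions gave 33.6% and 30.6%. Activin A gained 2 of 12 and lost 2 of 12 against Wnt3a, where all regions gave 33.3% and 30.3%. With the best 50% of each list, peaks numbered 26 after Activin A, 7 after Wnt3a, 18 after both ligands and 5 in control. The shares were 0.0688% after Activin A, 0.0664% after Wnt3a, 0.0617% after both ligands and 0.0381% in control (exact 95% interval 0.0124 to 0.0890), so the control share was lower than in the whole list (0.0648%), within its interval. Against control, Activin A then gained 20 and lost 0, Wnt3a lost 2 and both ligands lost 1. Both ligands gained 4 and lost 12 against Activin A and gained 11 and lost 1 against Wnt3a, and Activin A gained 18 and lost 0 against Wnt3a. With 500 bases around each peak's centre, both ligands lost 4 against control and 1 against Wnt3a, and Activin A lost 2 against Wnt3a; the cause was not tested.

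The median percentile of the region nearest each 5′ end, over the 2 to 4 genes with a peak there, was 74.1 after Activin A, 92.3 after Wnt3a, 81.6 after both ligands and 53.6 in control. These medians are over different genes and cannot be compared between lists. The Wnt3a value rests on SKIL and BAMBI, at 98.4 and 86.1. At those genes Activin A stood at 99.4 and 91.0, both ligands at 98.0 and 81.6, and control at 87.9 and 47.7. The other medians also counted SMAD7, and that of Activin A counted PMEPA1 (24.6). The PMEPA1 value is that of the weak peak at the interval's 5′ end. The strongest PMEPA1 region, centred 1.15 kb inside the gene and at 95.9 after Activin A, was not counted. At equal length the median was 82.8 after Activin A, 71.7 after both ligands and 42.3 in control, and over common regions 74.7, 88.0, 62.8 and 50.9 for Activin A, Wnt3a, both ligands and control, with different genes counted.

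Ranked among regions in both lists of a pair, Activin A was lower than control at 3 of 13 regions (31.6% of all regions so ranked) and both ligands at 4 of 14 (31.1%). Both ligands were higher than Activin A at 5 of 26 (26.6%) and lower at 10 (26.4%), and lower than Wnt3a at 5 of 12 (33.0%). At 20 points, over the 9 common regions, Activin A was lower than control at 0 (18.1% of all common regions) and Wnt3a at 0 (21.7%). Both ligands were higher than Activin A at 1 (11.9%), lower at 0 (12.0%) and higher than Wnt3a at 1 (19.5%), and Activin A was higher than Wnt3a at 1 (19.3%). Ranked by bases covered, both ligands were lower than Activin A at 1 of 9 (24.0%).

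Leaving out each gene gave 31 to 44 peaks after Activin A (0.0410% to 0.0582%), 21 to 32 after both ligands (0.0360% to 0.0548%) and 8 to 16 in control (0.0305% to 0.0610%). Gained regions against control ranged from 20 to 31 for Activin A and 12 to 18 for both ligands, and against Wnt3a from 11 to 20 for both ligands and 23 to 34 for Activin A. Lost regions against control ranged from 1 to 3 for Activin A, 2 to 7 for Wnt3a and 0 to 2 for both ligands, from 10 to 19 for both ligands against Activin A, and from 0 to 1 for Activin A against Wnt3a. The lowest peak counts in these 3 lists are those without SMAD7.

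With 1 library per group no value has a replicate error, and a site below the caller's threshold is listed as absent.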
